A study of Mus musculus with 44 samples.

Results

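The 10 genes examined here mark neurons as a class and were followed through satellite glia and neurons of the mouse dorsal root ganglion: Uchl1, Snap25, Tubb3, Map7d2, Elavl3, Elavl4, Rbfox3, Isl1, Pou4f1 and Thy1. They were taken by name from the gene symbols of the deposited expression tables. FPKM values (fragments counted on a gene, relative to its length and to the library's total) could be used for 9 of the 10 members, out of 45882 genes in all. Tubb3 had no FPKM value that could be used here and is described only from the authors' deposited tables of differential expression. The study holds 44 bulk RNA-seq libraries of C57BL/6 mice in 12 groups, and no group carries a transgene or an engineered allele per the labels. Naive mice of 9 weeks gave 4 libraries of satellite glial cells (SGCs) and 4 of unsorted ganglion cells (DRGs). Mice of 9 to 11 weeks gave 4 SGC libraries per group at 3 and at 14 days after full sciatic nerve ligation or sham surgery. Mice of the same ages gave 20 libraries of neurons at 8 days after partial ligation or sham surgery: 3 per sex and surgery, 4 from the ligated side (labelled ipsi) and 4 from the opposite side (contra), these last 8 with no sex in the labels.

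SGCs came from L3 and L4 ganglia that were enzymatically dissociated, fixed, stained with antibodies and a DNA dye, and sorted by flow cytometry. The DRG libraries were dissociated and fixed without sorting. Neurons came from L3 to L5 ganglia through a magnetic-bead kit and were not fixed. The 3 preparations thus differ in more than cell type. Each was deposited in its own table (naive SGCs with DRGs, SGCs after surgery, neurons), so levels were compared only within a table.

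Satellite glia wrap the cell bodies of sensory neurons so closely that enzymatic dissociation can leave glia attached to neurons or to fragments of them. Pan-neuronal genes are therefore commonly read in glial preparations as a measure of neuronal RNA. After an axon is cut or tied, sensory neurons switch on a regeneration programme that includes Atf3, Gal and Sprr1a. The pan-neuronal genes serve in that setting as a sign of general neuronal identity.

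The members fall into groups by role, with positions on GRCm38 from GENCODE M21. Elavl3 (chr9:22015005-22052023) and Elavl4 (chr4:110203722-110351909) encode neuronal Hu proteins, which bind AU-rich RNA. Rbfox3 (chr11:118489762-118911597) encodes the splicing factor known as the NeuN antigen. Isl1 (chr13:116298281-116309689) and Pou4f1 (chr14:104461676-104467999, also called Brn3a) encode homeodomain transcription factors that specify sensory neurons. Snap25 (chr2:136713453-136782428) encodes a SNARE protein of synaptic vesicle release. Tubb3 (chr8:123411424-123422015) encodes the neuronal beta-tubulin, and its locus lies inside that of the overlapping annotated gene Gm20388 (chr8:119910841-124345722). Map7d2 (chrX:159414572-159498757) encodes a microtubule-associated protein. Uchl1 (chr5:66676091-66687234) encodes the abundant neuronal deubiquitinase PGP9.5. Thy1 (chr9:44043384-44048579) encodes a membrane glycoprotein of neurons that T cells and some fibroblasts also carry.

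Promoters are shown for 4 regulatory members, both transcription factors and the RNA-binding Rbfox3 and Elavl4. Their levels varied together across SGC libraries, as did those of Snap25 and Uchl1, and whether they share control was not tested. Each is the 200 bases before the RefSeq start (GRCm38.p6), 5′ to 3′ on the gene's strand, and capitals mark E-boxes (CANNTG, the same letters on both strands), the element bound by basic helix-loop-helix factors.
Rbfox3, chr11:118761042-118761241, minus strand, a start inside the GENCODE gene: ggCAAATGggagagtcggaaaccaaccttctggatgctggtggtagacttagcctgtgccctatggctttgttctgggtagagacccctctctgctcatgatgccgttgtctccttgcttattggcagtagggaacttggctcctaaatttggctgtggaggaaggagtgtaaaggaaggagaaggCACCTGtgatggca
Isl1, chr13:116309689-116309888, minus strand: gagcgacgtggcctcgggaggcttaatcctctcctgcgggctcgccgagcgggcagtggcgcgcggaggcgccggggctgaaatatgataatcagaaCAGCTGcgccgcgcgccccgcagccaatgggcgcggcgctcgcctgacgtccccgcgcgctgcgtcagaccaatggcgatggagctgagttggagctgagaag
Pou4f1, chr14:104468000-104468199, minus strand: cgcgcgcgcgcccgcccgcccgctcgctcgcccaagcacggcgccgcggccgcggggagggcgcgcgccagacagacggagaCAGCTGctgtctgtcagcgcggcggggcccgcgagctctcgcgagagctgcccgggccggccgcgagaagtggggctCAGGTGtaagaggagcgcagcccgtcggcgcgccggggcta
Elavl4, chr4:110351912-110352111, minus strand: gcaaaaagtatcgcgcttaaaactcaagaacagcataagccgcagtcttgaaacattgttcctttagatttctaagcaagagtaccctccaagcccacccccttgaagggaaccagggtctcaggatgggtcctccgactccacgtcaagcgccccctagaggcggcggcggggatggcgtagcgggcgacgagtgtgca

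RefSeq promoters were found for 8 members, all but Thy1 and Snap25. An E-box stood in 4 of the 8 (Rbfox3, Elavl3, Isl1 and Pou4f1) and in 58.2% of the 32851 promoters of the same length. A GC box (GGGCGG, searched on both strands) stood in 3 of the 8 (Elavl3, Pou4f1 and Tubb3) and in 31.0% of all promoters. TTCAGCACC, the left part of the RE1 element bound by the repressor REST, was found in none of the 8 windows and in 0.237% of all promoters. GC content ran from 51.5% in Uchl1 to 79.5% in Pou4f1, beside a median of 53% over all promoters. These matches describe letters in a window and say nothing of binding.

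The libraries were first checked against their labels. Satellite glia genes (10 listed, among them Fabp7 and Gja1) summed to between 18277 and 25814 FPKM in naive SGC libraries and to between 6672 and 10107 in DRG libraries, and all 10 were higher in SGCs (limma, adjusted p under 0.05). Of all 12907 genes tested in this comparison, 16.9% were called higher in SGCs and 27.9% lower, and each count below stands beside these shares. Macrophage genes summed to 4.04 to 11.5 FPKM in naive SGCs and 108 to 126 in DRGs, with all 8 lower in SGCs. Endothelial genes, in contrast, summed to 84.1 to 183 FPKM in naive SGCs and 31.2 to 77.2 in DRGs. All 6 had positive differences and 3 were called higher in SGCs, led by Cdh5 (1.49 ± 0.22, adjusted p = 0.00069), a junction protein of blood vessels. With quantile normalization 5 were called higher, where 3701 of all 12907 genes were. Fibroblast genes summed to 108 to 334 FPKM in SGCs and 164 to 237 in DRGs. Of 4 tested, 1 was called higher (Col1a2, 0.73 ± 0.20, adjusted p = 0.0168), beside 16.9% of all genes. Lymphocyte genes stayed at or below 0.506 FPKM in naive SGCs, with 4 of 6 listed at 0 in every library. Of 10 satellite glia genes, 4 had values in the neuron table, and these summed to 38.9 to 80.4 FPKM. That table holds 12170 genes, beside 45882 in each of the others, so genes without values there are not shown to be absent. The authors' deposited table for neurons has adjusted p-values for 7 of these 10 genes. Genes of myelinating Schwann cells, which wrap axons, summed to 556 to 619 FPKM in naive SGCs and 1253 to 1679 in DRGs, with 5 of 6 tested lower in SGCs. In neuron libraries the 5 of them with values summed to 726 to 2848 FPKM, and none was called by limma in any comparison of ligated with sham or of the sides. Among the neurons, opposite-side library 2 stood apart. It had a median correlation of 0.83 with the others, where the others had 0.90 to 0.94, and 1176 genes listed at 0 beside 207 to 809. The files hold no read counts, so depth per library is unknown. No label ties a library to an animal, so the p-values reflect variation among libraries, which may be technical.

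All 9 measured members were far lower in naive SGCs than in DRGs, but none was listed at 0 in any library of the series. The mean SGC level ran from 1.55% of the mean DRG level for Thy1 to 13.3% for Elavl3, with a median of 6.96%. In bulk libraries fewer neuronal cells and less neuronal RNA per cell cannot be told apart. All 9 passed the test (limma on log2(FPKM + 1), called at an adjusted p under 0.05), where 44.9% of the 12907 genes tested were called, 27.9% lower and 16.9% higher. The members' median difference was -3.66 on the log2(FPKM + 1) scale, beside -0.12 over all genes tested. With quantile normalization, which forces 1 distribution on every library, 3701 genes were called higher and 2691 lower in place of 2184 and 3605, and all 9 members remained lower with a median of -3.40.

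**Figure D1:**
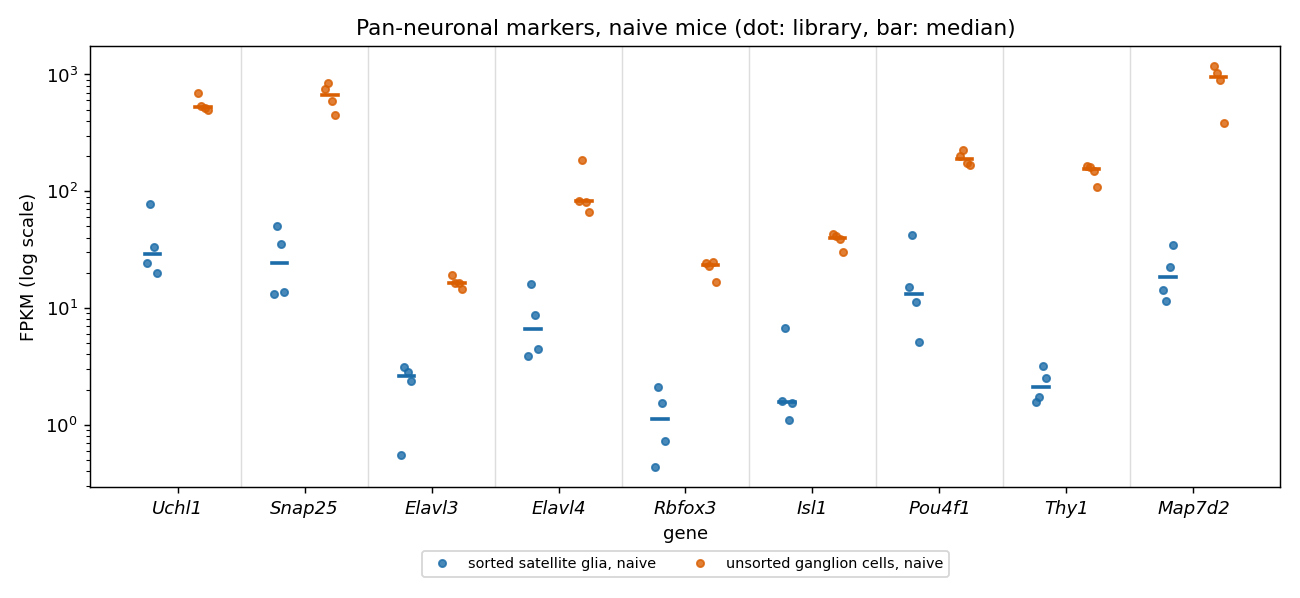
FPKM (log axis) of the 9 measured pan-neuronal markers in the 4 naive SGC and 4 naive DRG libraries; each dot is a library and each bar a group median. SGC and DRG libraries do not overlap for any of the 9, and the gap is widest for Thy1 and Map7d2. How many of all genes separate in this way was not counted.

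Among the RNA-binding proteins, Elavl4 stood at 3.86, 16.2, 8.71 and 4.47 FPKM in the 4 naive SGC libraries and at 83.2, 184, 81.4 and 66.9 in the DRG libraries. No SGC library reached the lowest DRG library. The difference was -3.57 ± 0.45 (SE; adjusted p = 0.000331). Elavl3 was low in both preparations, at 0.547, 3.11, 2.81 and 2.37 FPKM in SGCs against 19.1, 16.5, 16.4 and 14.5 in DRGs, and gave the smallest difference of the 9 (-2.54 ± 0.30, adjusted p = 0.000237). Rbfox3 stood at 0.436, 2.12, 1.52 and 0.723 FPKM in SGCs and at 24.3, 22.7, 25.0 and 16.6 in DRGs, a difference of -3.45 ± 0.26 (adjusted p = 3.14e-05). At such low SGC levels the added 1 FPKM shrinks the difference. SGC library 1 was the lowest of the 4 for all 3 of these genes and SGC library 2 the highest.

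The transcription factors showed the same gap with more spread between SGC libraries. Pou4f1 measured 15.2, 42.5, 11.3 and 5.07 FPKM in naive SGCs, an 8.38-fold range, and 200.2, 226, 176 and 166 in DRGs. SGC library 2 alone reached 22.1% of the mean DRG level of Pou4f1, and SGC library 4 reached 2.64%. The Pou4f1 difference was -3.66 ± 0.51 (adjusted p = 0.00052). Isl1 measured 1.59, 6.78, 1.11 and 1.53 FPKM in SGCs and 42.8, 41.3, 38.9 and 30.2 in DRGs, a difference of -3.60 ± 0.39. The second SGC library stood clear of the other 3 for Isl1.

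Synaptic, cytoskeletal and surface members had the largest differences. Snap25 measured 13.2, 50.1, 35.0 and 13.8 FPKM in SGCs and 751, 848, 590 and 447 in DRGs (-4.68 ± 0.43, adjusted p = 7.35e-05). Uchl1 measured 24.5, 77.1, 33.6 and 19.8 FPKM in SGCs and 689, 534, 512 and 494 in DRGs (-4.00 ± 0.37, adjusted p = 7.74e-05). Uchl1 was the most abundant member in SGCs by its mean, 38.8 ± 26.2 FPKM (SD, n = 4). Map7d2 was the most abundant in DRGs, at 1183, 1023, 889 and 385 FPKM, and stood at 14.3, 11.5, 22.2 and 34.8 in SGCs (-5.33 ± 0.42, adjusted p = 3.68e-05). Thy1 fell from 165, 162, 148 and 108 FPKM in DRGs to 1.57, 1.73, 3.22 and 2.51 in SGCs, the largest difference of the 9 (-5.50 ± 0.21, adjusted p = 7.18e-07).

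The members did not order the SGC libraries alike. SGC library 2 was the highest of the 4 for 7 members, but Map7d2 was lowest there and highest in library 4, and Thy1 was highest in library 3. The summed level of the 9 members was 75.3, 211, 120 and 85.1 FPKM in SGC libraries 1 to 4. In DRGs it was 3157, 3058, 2476 and 1727, with library 4 lowest for all 9 members. In naive SGCs no member was separated from its neighbour in the order of means: the libraries of each neighbouring pair overlapped.

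Most relatives of the members in the same gene families were lower in SGCs as well. Of 20 measured relatives, 18 were called lower in SGCs and 2 higher (16 and 2 with quantile normalization), with a median of -1.81. Of all 12907 genes tested, 27.9% were called lower and 16.9% higher, with a median of -0.12. With quantile normalization 2691 were called lower and 3701 higher. Elavl2, the other neuronal Hu gene, was lower (-3.30 ± 0.48, adjusted p = 0.000666), while Elavl1, the broadly expressed HuR gene, rose by 0.77 ± 0.15 (adjusted p = 0.00359), from 5.17 ± 0.514 to 9.55 ± 1.49 FPKM (SD, n = 4 each). Snap23, the SNARE of non-neuronal cells, rose by 0.64 ± 0.16 (adjusted p = 0.0119) where Snap25 was lower. Rbfox1 (-4.09 ± 0.41, adjusted p = 0.000111) and Tubb2a (-3.56 ± 0.21, adjusted p = 1.05e-05) had the largest differences among the relatives. All 13 vesicle release genes measured were lower, led by Cplx1 (-5.13 ± 0.39), a complexin that binds the SNARE complex. Of 10 neuronal cytoskeleton genes 9 were lower, led by the neurofilaments Nefh (-6.43 ± 0.40), Nefm (-5.51 ± 0.29) and Nefl (-4.98 ± 0.32). All 4 tested sensory transcription factors were lower (3 with quantile normalization), led by Prrxl1 (-3.33 ± 0.40).

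After surgery, the question was whether neuronal RNA in sorted SGCs differed between ligated and sham mice. None of the 9 members was called at 3 days or at 14 days by limma, where 0.0646% and 0.00718% of the 13924 genes tested were called in either direction (at 3 days 0.0431% higher and 0.0215% lower). At an unadjusted p under 0.05 the members counted 0 at 3 days and 1 at 14 days, which was Thy1. The members' median difference was -0.22 at 3 days and 0.13 at 14 days, beside -0.01 and -0.02 over all genes. With 1 library left out the sign of the median turned at both times: it ran from -0.60 (without sham library 4) to 0.07 (without ligated library 2) at 3 days and from -0.19 (without sham library 4) to 0.46 (without ligated library 4) at 14 days. Their differences ran from -0.51 (Map7d2) to 0.97 (Thy1) at 3 days and from -0.47 (Map7d2) to 1.42 (Thy1) at 14 days. The 95% confidence intervals were wide: that of Pou4f1 at 3 days ran from -1.53 to 1.09.

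**Figure D2:**
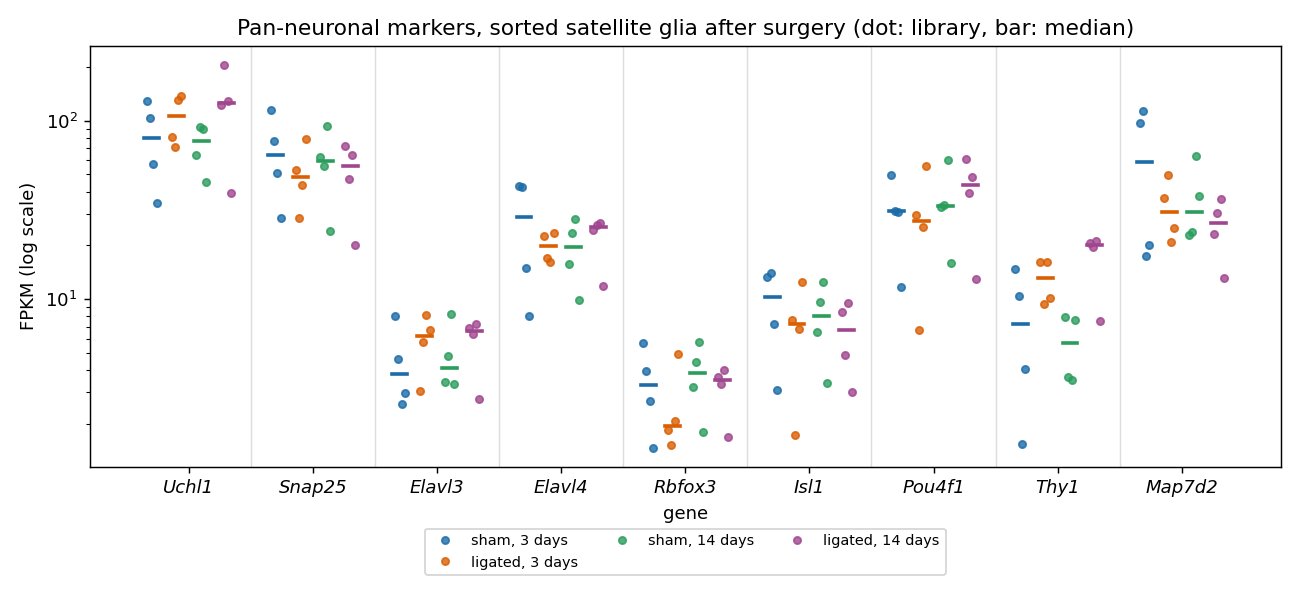
FPKM (log axis) of the 9 members in the 16 SGC libraries after surgery, 4 per group; each dot is a library and each bar a group median. Sham and ligated libraries overlap for every member at both times, and Thy1 comes closest to separating at 14 days.

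Snap25 shows the spread within groups. It measured 115, 76.4, 51.2 and 28.3 FPKM in the sham libraries at 3 days and 52.7, 28.3, 43.8 and 78.6 in the ligated libraries, so the groups overlap and each has its lowest library at 28.3. At 14 days it measured 62.8, 56.0, 93.3 and 24.0 after sham and 71.7, 47.2, 64.5 and 20.1 after ligation. Its differences were -0.32 ± 0.50 and -0.21 ± 0.50 (SE; adjusted p = 0.884 and 1). Elavl4 measured 43.0, 42.3, 15.02 and 8.02 FPKM in the sham libraries at 3 days against 22.7, 17.0, 16.03 and 23.6 after ligation. The ligated libraries of Elavl4 lay between the high and the low sham pair. At 14 days Elavl4 stood at 15.7, 23.4, 28.0 and 9.90 after sham and at 24.5, 25.9, 26.7 and 11.8 after ligation.

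Rbfox3 measured 5.65, 3.96, 2.68 and 1.47 FPKM after sham and 1.84, 1.52, 2.06 and 4.89 after ligation at 3 days (-0.30 ± 0.37, adjusted p = 0.852). At 14 days it stood at 3.22, 4.44, 5.71 and 1.81 against 3.66, 3.35, 4.01 and 1.69. Elavl3 stayed between 2.58 and 8.28 FPKM over all 16 libraries. For these Hu and NeuN genes the libraries of the groups were interleaved. Isl1 ranged from 1.73 to 14.0 FPKM over the 16 libraries and Pou4f1 from 6.74 to 61.2. The lowest value of both came from ligated library 2 at 3 days, whose Map7d2, at 49.6 FPKM, was the highest of its group. Map7d2 ranged from 17.5 to 114 FPKM within the sham group at 3 days.

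Uchl1 and Thy1 were the members with the largest positive differences. Uchl1 measured 128, 103, 57.5 and 34.4 FPKM after sham and 81.3, 71.2, 130.4 and 138 after ligation at 3 days (0.49 ± 0.48, adjusted p = 0.812). At 14 days it measured 64.3, 92.5, 89.2 and 45.4 after sham and 123, 205, 128 and 39.1 after ligation (0.59 ± 0.48, adjusted p = 1). In 3 of the 4 ligated libraries Uchl1 exceeded every sham library at 14 days, and the fourth was below them all. With 1 library left out the Uchl1 difference ran from 0.14 (without sham library 4) to 0.77 (without sham library 1) at 3 days and from 0.28 (without ligated library 2) to 1.07 (without ligated library 4) at 14 days. Thy1 measured 14.7, 10.4, 1.55 and 4.07 FPKM after sham and 16.2, 9.44, 16.1 and 10.1 after ligation at 3 days (0.97 ± 0.50, adjusted p = 0.593). At 14 days it measured 7.98, 3.64, 3.50 and 7.67 after sham and 20.7, 19.5, 21.2 and 7.51 after ligation. Here again 3 ligated libraries stood above all sham libraries. The Thy1 difference at 14 days was 1.42 ± 0.50 (95% confidence interval 0.36 to 2.48; unadjusted p = 0.0120, limma adjusted p = 0.868), and without ligated library 4 it was 1.76 (limma adjusted p = 0.528, where all alternatives ranged from 0.303 to 1).

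The authors' deposited tables of DESeq2 results, read here as ligated over sham, hold all 10 members. They called 1 of 10 members higher at 3 days, where 0.498% of 17662 genes with an adjusted p were higher, and 2 of 10 at 14 days, where 0.641% of 19185 were. In either direction 1.01% and 1.05% of genes were called, and no member was lower. In the authors' deposited tables Tubb3 had a log2 fold change of 1.49 ± 0.34 (adjusted p = 0.00356) at 3 days and 1.28 ± 0.33 (adjusted p = 0.0168) at 14 days. Thy1 had 0.70 ± 0.60 (adjusted p = 0.846) at 3 days and 1.62 ± 0.39 (adjusted p = 0.00679) at 14 days in the same tables. The other 8 members had adjusted p-values of 0.517 or more at both times there, with log2 fold changes from -0.65 (Map7d2 at 3 days) to 0.78 (Uchl1 at 14 days). Thy1 at 14 days was thus called by the authors' test and not by limma on FPKM. Whether the ligation effect on Thy1 differed between 14 and 3 days was tested with limma and not shown (0.45, adjusted p = 0.9995; 0.00718% of genes called), and none of the 9 members was called in that test.

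Markers of lymphocytes and fibroblasts, some of which can carry Thy1, were set beside it, together with endothelial and macrophage markers. Lymphocyte genes summed to 0.272 to 0.895 FPKM in sham and 0.0548 to 1.56 in ligated libraries at 14 days, with 2 of 6 listed at 0 in every library of each group, and none passed the filter. Fibroblast genes summed to 112 to 323 FPKM in sham and 130 to 314 in ligated libraries, and none of 4 tested was called by limma. Endothelial genes summed to 117 to 232 and 167 to 321 FPKM, with all 6 differences positive and none called by limma. Macrophage genes summed to 5.13 to 26.4 FPKM in sham and 16.6 to 41.3 in ligated libraries, with all 5 tested differences positive and none called by limma. In the authors' deposited tables Aif1 was higher at 14 days (log2 fold change 7.74 ± 1.70, adjusted p = 0.00199), where its limma difference was 1.29 ± 0.68 and not called. C1qa was higher there at 3 days (7.57 ± 2.00, adjusted p = 0.0230). All macrophage genes at 3 days summed to 7.90 to 19.2 FPKM in sham and 8.01 to 33.0 in ligated libraries, with 1 of 8 listed at 0 in every sham library. Of 5 tested by limma at 3 days, 2 had positive differences and none was called. No lymphocyte, fibroblast or endothelial gene was called in the authors' deposited tables. The part of these cells in the Thy1 values was not tested.

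Genes of the nerve injury programme, expressed by damaged neurons, were higher after ligation in the same SGC libraries. Of 10 listed, limma called 5 higher at 3 days, beside 0.0431% of all genes, with a median difference of 2.56. All 10 were positive at both times (median 1.96 at 14 days, none called by limma). The list was chosen with earlier results of these data known. Gal, a neuropeptide of injured sensory neurons, rose by 5.19 ± 0.82 at 3 days (adjusted p = 0.0333), from 4.39 to 197 FPKM over the sham libraries to 1014 to 2176 over the ligated ones. Atf3 (3.36 ± 0.51) and Sox11 (2.95 ± 0.42), transcription factors of regeneration, rose beside it (adjusted p = 0.0331 each). The calls at 3 days depended on the fit. None of the 10 was called with no filter, with only the groups compared, with the replicate block, or without ligated library 3 or 4 or sham library 2 or 3. Without ligated library 1 or 2 or sham library 1 or 4 the count was 1, 2, 2 and 3, and the median with 1 library left out ran from 2.36 to 2.76. Of the 10, the authors' deposited tables called 6 higher at 3 days and 7 at 14 days, beside 0.498% and 0.641% of all genes. Of 19 relatives of the members, none was called by limma at either time, and the embryonic tubulin Tubb2b had the largest difference (1.45 ± 0.37 at 3 days, adjusted p = 0.236; 1.17 ± 0.37 at 14 days, adjusted p = 0.798). In the authors' deposited tables Tubb2b was higher at 3 days (log2 fold change 1.60 ± 0.44, adjusted p = 0.0313) and Tubb6 at 14 days (1.25 ± 0.25, adjusted p = 0.000536). No vesicle release, neuronal cytoskeleton or sensory transcription factor gene was called by limma at either time, while the authors' deposited table at 14 days called Stmn2 higher (1.29 ± 0.27, adjusted p = 0.000689). By limma, the largest differences in these lists at 3 days were those of Syt4 (1.22 ± 0.47, adjusted p = 0.442), Stmn2 (1.33 ± 0.42, adjusted p = 0.331) and Prrxl1 (-1.01 ± 0.55, adjusted p = 0.612), each from its own list.

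Sham SGCs at 14 and at 3 days were compared as a check of time alone. None of the 9 members was called, nor was any of the 13924 genes (0% called; 695 genes and no member had an unadjusted p under 0.05). The members' differences ran from -0.39 to 0.22.

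Within groups the members moved together from library to library. The summed level of the 9 members was 475, 400.2, 186 and 114 FPKM in the sham libraries at 3 days and 252, 191, 270 and 355 in the ligated ones. At 14 days it was 220, 252, 364 and 149 after sham and 343, 382, 346 and 112 after ligation. Ligated library 4 at 14 days was the lowest of its group for all 9 members, and sham library 4 at 14 days for 7. Thy1 broke this order in the sham group at 14 days, where library 4 was its second highest. Sham library 1 at 3 days was highest for 7 members.

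**Figure D3:**
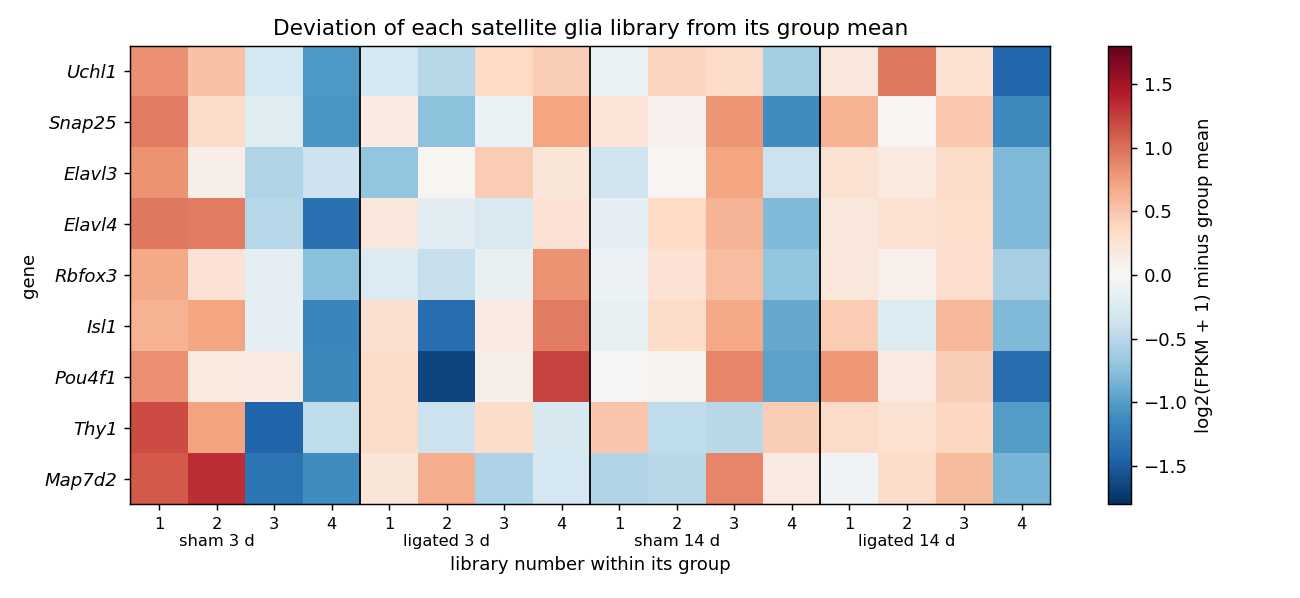
Deviation of each SGC library from its group mean, in log2(FPKM + 1), for the 9 members (rows) and 16 libraries (columns, split by group). Columns are mostly of 1 colour, with ligated library 4 at 14 days below its group mean for all 9 members, and Thy1 and Map7d2 depart most often from the rest.

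As a description over the 16 SGC libraries after surgery, each gene's deviations from its group means were correlated with the mean deviation of the 9 members. Snap25 followed that mean with r = 0.94, Elavl4 with 0.94, Rbfox3 with 0.91, Uchl1 with 0.91, Isl1 with 0.88, Pou4f1 with 0.86, Elavl3 with 0.79, Map7d2 with 0.68 and Thy1 with 0.61. Each member is itself part of the mean, which raises these values. Of the 11034 genes compared, the closest that were no members were Fam102b (0.95), Syt1 (0.95), Ywhah (0.95), Stmn2 (0.95) and Sept3 (0.95, matched by its Ensembl identifier). Syt1 is the calcium sensor of synaptic vesicle release and Stmn2 a neuronal tubulin-binding protein. All genes share the library and its unknown depth, so these values carry no test. The pooled standard deviation within groups of the members had a median of 0.76 on the log2(FPKM + 1) scale in SGCs after surgery, beside 0.47 over the 13924 genes tested. In neurons it was 0.42, beside 0.49 over 12145 genes. Uchl1 fell to 0.24, Pou4f1 to 0.27 and Snap25 to 0.28 there, while Thy1 stayed at 0.79 and Isl1 at 0.71.

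In isolated neurons at 8 days the comparison asks whether pan-neuronal genes changed with ligation. None of the 9 members was called by limma over both sexes, where 0.28% of 12145 genes were called, and none had an unadjusted p under 0.05. The differences ran from -0.17 (Elavl3) to 0.28 (Thy1), with a median of -0.08 beside -0.04 over all genes (-0.13 without sham male library 1 to 0.018 without ligated female library 3). The intervals were narrow for the members with the smallest spread within groups: -0.34 to 0.30 for Uchl1, -0.42 to 0.24 for Pou4f1 and -0.46 to 0.24 for Snap25. That of Thy1 ran from -0.57 to 1.13. In the authors' deposited table for neurons none of the 10 members had an adjusted p under 0.05, where 1.7% of 13926 genes did (1.38% higher). Tubb3 had the largest log2 fold change of the 10 there, 0.47 ± 0.20 (adjusted p = 0.324), and that of Elavl4 was nearest to 0, 0.0037 ± 0.0960.

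**Figure D4:**
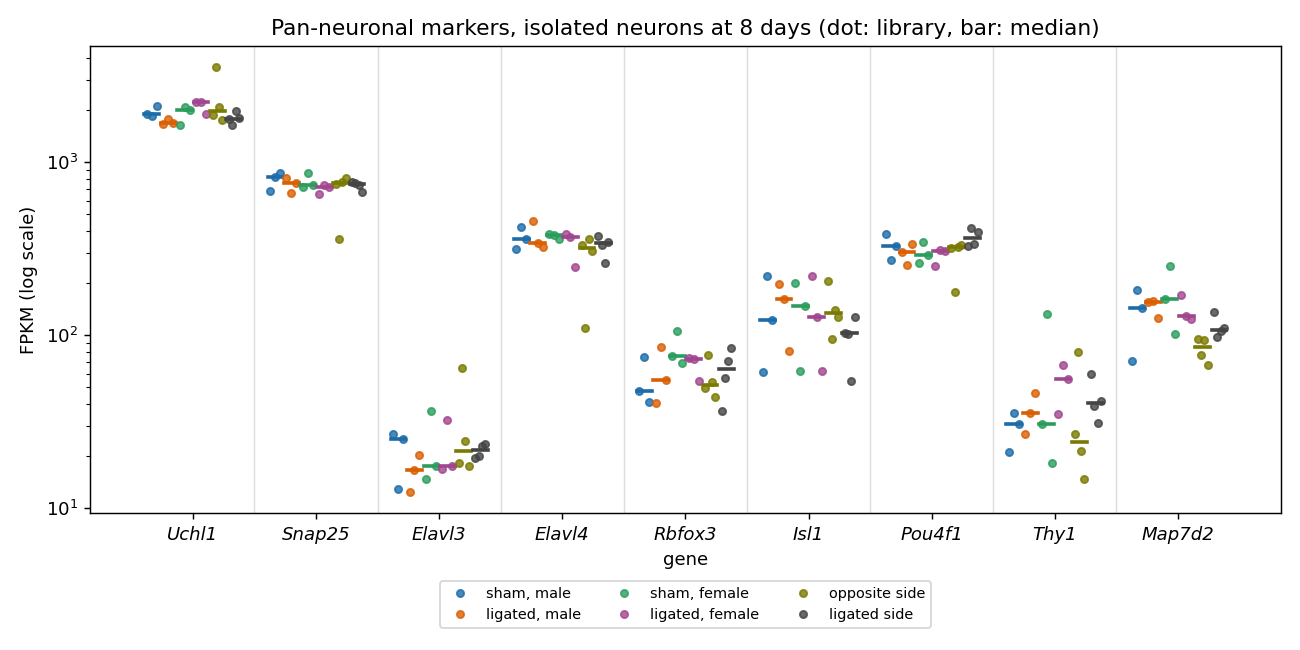
FPKM (log axis) of the 9 members in the 20 neuron libraries at 8 days; each dot is a library and each bar a group median. Sham and ligated males do not overlap for Uchl1, nor do the 2 sides for Map7d2, and limma called neither. Opposite-side library 2 stands apart for Snap25, Elavl4, Pou4f1, Elavl3, Uchl1 and Thy1.

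Uchl1 measured 1898, 1858 and 2097 FPKM in sham males and 1664, 1767 and 1689 in ligated males. Every ligated male library was below every sham male library, and limma did not call Uchl1 in males. With 3 libraries per group such a separation can arise by chance, and the share of all genes that separate was not counted. In females the order was mixed, at 1638, 2073 and 2014 after sham and 2226, 2221 and 1895 after ligation. Snap25 measured 680, 823 and 868 FPKM in sham males, 806, 662 and 756 in ligated males, 715, 861 and 735 in sham females and 653, 738 and 720 in ligated females. Pou4f1 stayed between 251 and 385 FPKM over these 12 libraries and Elavl4 between 247 and 457. Neither separated the groups.

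Isl1 and Thy1 varied most between neuron libraries. Isl1 measured 61.6, 219 and 123 FPKM in sham males, 197, 162 and 81.1 in ligated males, 199, 62.5 and 147 in sham females and 219, 127 and 62.3 in ligated females. Each of the 4 groups thus held 1 library at or below 81.1. Thy1 measured 21.2, 35.7 and 30.8 FPKM in sham males, 26.9, 35.6 and 46.6 in ligated males, 30.7, 133 and 18.2 in sham females and 35.2, 67.6 and 56.0 in ligated females. The highest Thy1 value came from sham female library 2, which was also the highest of its group for 7 members, among them Map7d2 (253 FPKM) and Rbfox3 (106), and the lowest for Isl1. Thy1's difference over both sexes was 0.28, and without that library 0.69.

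By sex, none of the 9 members was called in males (0.00823% of genes called), in females (0.148%), or in the test of the difference between the sexes (0% called; 130 genes and no member had an unadjusted p under 0.05). The members' differences ran from -0.34 to 0.30 in males and from -0.31 to 0.26 in females.

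The ligated side was also compared with the opposite side in ligated mice. None of the 9 members was called, where 0.667% of 12145 genes were (0.659% higher), and none had an unadjusted p under 0.05. Pou4f1 came closest (0.39 ± 0.19, unadjusted p = 0.0590, limma adjusted p = 0.533), at 326, 415, 339 and 394 FPKM on the ligated side and 319, 178, 325 and 333 on the opposite side. The low value was that of library 2. Map7d2 measured 136, 97.2, 105 and 110.0 FPKM on the ligated side and 95.7, 77.0, 94.2 and 67.1 on the opposite side, with every ligated-side library above every opposite-side one (0.43 ± 0.27, adjusted p = 0.641). The share of all genes whose sides separate in this way was not counted. Isl1 measured 104, 102, 54.0 and 127 FPKM against 206, 95.3, 139.9 and 128 (-0.57 ± 0.44, adjusted p = 0.699).

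Opposite-side library 2 departed from its group in both directions. Snap25 stood at 358 FPKM there and at 750.0 to 812 in the other 3, Elavl4 at 110.0 against 308 to 359, and Pou4f1 at 178 against 319 to 333. Elavl3 stood at 64.7 against 17.6 to 24.5, Thy1 at 80.2 against 14.7 to 26.8, and Uchl1 at 3536 against 1747 to 2079. The ligated side held Snap25 between 672 and 767 FPKM and Uchl1 between 1644 and 1966. Without that library the differences of Snap25 and Elavl4 turned from 0.19 and 0.37 to -0.09 and -0.03 and that of Elavl3 from -0.30 to 0.11, and still none of the 9 was called.

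**Figure D5:**
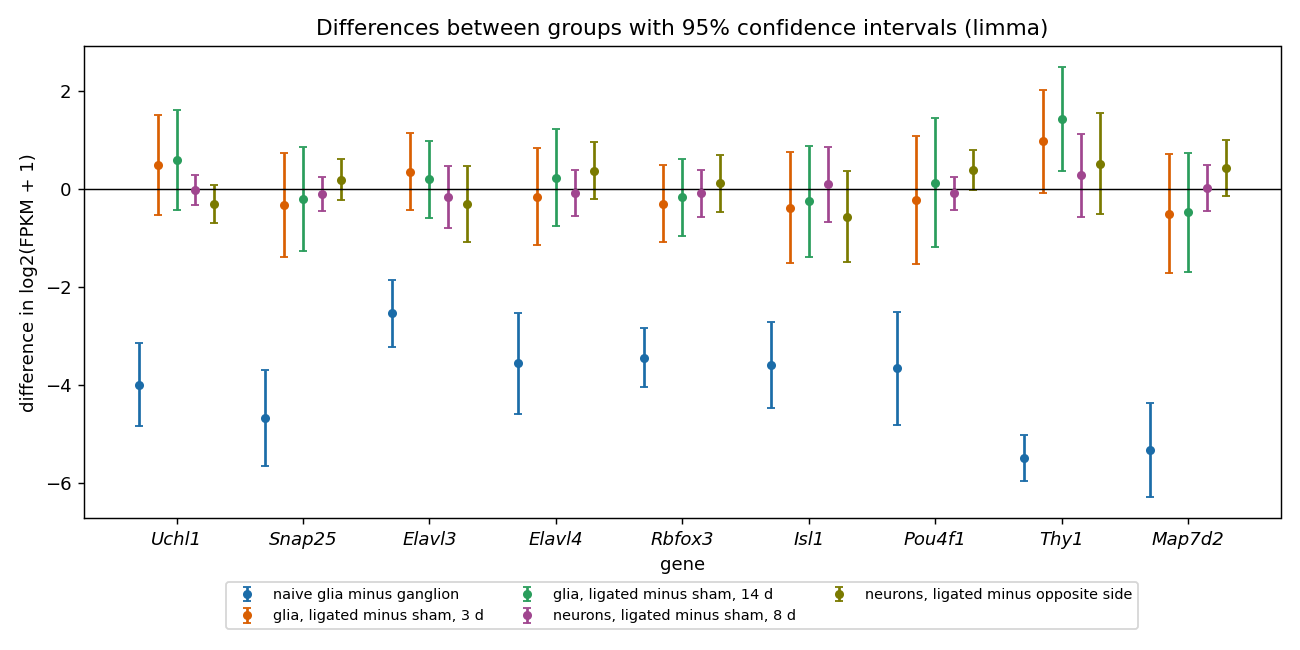
Difference in log2(FPKM + 1) between groups for each of the 9 members in 5 comparisons; dots are limma estimates and bars 95% confidence intervals. The intervals of the naive differences all end at -1.86 (Elavl3) or lower, while the other intervals include 0, except that of Thy1 in SGCs at 14 days.

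Injury genes moved in these neuron libraries, while the pan-neuronal members did not pass the test. The injury list was chosen with earlier results of these data known, so its counts are a description. Over both sexes limma called 8 of 10 injury genes higher (9 with quantile normalization), beside 0.28% of all genes, and the median difference of the 10 was 2.02. The largest differences were those of Sprr1a (5.63 ± 0.61, adjusted p = 0.000117), Npy (5.16 ± 0.47, adjusted p = 1.14e-05) and Gal (3.19 ± 0.36, adjusted p = 0.000162). The authors' deposited table for neurons also called 8 of the 10 higher, beside 1.38% of all genes, but Sprr1a was not among them. Npy had a log2 fold change of only 0.78 ± 0.22 there (adjusted p = 0.0282), and Gal one of 2.72 ± 0.22. On the ligated side limma called 9 of 10 higher, Atf3 among them (4.81 ± 0.57), beside 0.659% of all genes. The median difference of the 10 was 3.58. Of the 20 relatives of the members limma called only the tubulin Tubb6 in either comparison. It was higher over both sexes (3.03 ± 0.53, adjusted p = 0.00996) and by side (4.26 ± 0.65, adjusted p = 0.00141). Tubb6 stood at 4.15 to 25.3 FPKM over the sham libraries of both sexes and at 41.9 to 88.5 over the ligated ones. Over both sexes Tubb6 was not called with a pseudocount of 0.1 (3.19 ± 0.86, adjusted p = 0.291), where the other settings with all libraries gave adjusted p-values from 0.00133 to 0.0100 (limma). No vesicle release, neuronal cytoskeleton or sensory transcription factor gene was called by limma in either. The authors' deposited table for neurons called Tubb6 higher (log2 fold change 1.20 ± 0.26, adjusted p = 0.000989), Stmn2 higher (0.34 ± 0.10, adjusted p = 0.0417) and the sensory transcription factor Runx1 lower (-0.55 ± 0.15, adjusted p = 0.0217), where 0.323% of genes were lower.

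The order of the members by level, per length and within a library group, differed between preparations. Uchl1 was the first and Snap25 the second in all 6 neuron groups and in all 5 SGC groups. In neurons the libraries of Uchl1 lay above those of Snap25, and those of Snap25 above the next member, in each of the 6 groups. In DRGs Map7d2 was the first, at 870 ± 345 FPKM, followed by Snap25 at 659 ± 177 and Uchl1 at 557 ± 89.2, 3 means whose libraries overlapped from each neighbour to the next. In neurons Map7d2 was only the fifth or sixth, with group means from 83.5 to 172 FPKM beside 673 to 790 for Snap25. Thy1 was the fifth in DRGs (146 ± 26.4 FPKM) and the eighth in every neuron group. Elavl3 was the last in DRGs and in every neuron group, and Rbfox3 in every SGC group. These orders come from libraries prepared in different ways and carry no test across tables.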

How the data were processed

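RNA-seq values of 44 libraries were used as deposited. The submitters' processing notes name DESeq2, STAR, Cufflinks and SAMtools and the build mm10, without versions or roles. The FPKM values in 3 deposited tables, scaled separately and one of them with decimal commas, were summed per Ensembl identifier. From the DESeq2 tables that the authors deposited, log2 fold changes, their errors and adjusted p-values were taken. Negative log2 values there were read as higher after ligation and printed with the sign turned, because the FPKM moved the other way for 102 of 103 (3 days), 139 of 140 (14 days) and 213 of 213 (neurons) of the genes under 0.05. Another such table names no comparison and was not used, and 1 unlabelled column was left out.

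Differences were computed with limma 3.58.1 (R 4.3.3), two-sided with a mean-variance trend, on log2(FPKM + 1), which understates changes of low genes. Genes needed 1 FPKM in at least 4 libraries (3 for neurons), the smallest group size. All groups of a table shared a fit. Benjamini-Hochberg adjustment ran over the whole table, and genes were called under an adjusted p of 0.05. There were 10 comparisons. The script was tested on simulated data. The comparison over both sexes averages the male and the female difference. Neuron libraries are numbered by column order, only as names. Members and lists (11 besides the members) were chosen with earlier results of these data known. All members are given in every comparison. From the other lists, the text gives counts and up to 3 called genes of largest difference, or, where none was called, the largest, and the 5 genes of other kinds that followed the members most closely across the SGC libraries after surgery. Alternatives were a pseudocount of 0.1, no filter, only the groups compared, quantile normalization, array weights, each library left out, and a replicate block.

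Promoters were taken from RefSeq (GRCm38.p6) and positions from GENCODE M21. The 9 measured members ended at the same base in the neuron table and in GENCODE, within 1 base. Depth is unknown, so no counting interval is given. Python 3.11.15, pandas 2.3.3 and matplotlib 3.10.9 made tables and figures.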

Additional observations from a re-analysis of the deposited data

Results flagged for a closer look

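Each member was examined in the 8 groups of 4 libraries for a single library far from the other 3 on the log2(FPKM + 1) scale, by Dixon's ratio at its 95% critical value. Of 72 such sets 7 were marked, where chance marks about 1 in 20 of independent sets. The members move together within a library, so these sets are not independent and the count is not read as an excess.

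In naive SGCs the library marked was number 2 for Isl1, at 6.78 FPKM against 1.11 to 1.59 in the others. In ligated SGCs at 14 days it was library 4, the low one, for Thy1 (7.51 FPKM), Elavl3 (2.75) and Elavl4 (11.8). Opposite-side neuron library 2 was marked for low Elavl4 (110.0 FPKM), Pou4f1 (178) and Snap25 (358).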

How the results depend on the processing

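The count of members called was the same in every comparison under each alternative: 9 in naive SGCs against DRGs and 0 in the other 9 comparisons, leave-one-out fits included. The counts over all genes moved more. They ran from 4598 to 6453 for naive SGCs, 0 to 14 for ligated SGCs at 3 days (0 with the block), 0 to 10 at 14 days, 21 to 48 for neurons of both sexes and 36 to 119 for the ligated side, where the reported counts were 5789, 9, 1, 34 and 81. In smaller counts, males ran from 0 to 4, females from 7 to 35, the sex difference from 0 to 1, sham over time from 0 to 4 and the ligation effect over time from 1 to 4.

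Signs of uncalled members turned in some fits. With array weights Elavl4 in SGCs at 3 days moved to 0.014, and on the ligated side Elavl3 moved to 0.020 and Snap25 to -0.0087. With quantile normalization Uchl1 in neurons of both sexes moved to 0.0031. Leaving out 1 library at a time, the SGC differences at 3 days ran from -0.60 to 0.16 for Elavl4, -0.78 to 0.069 for Isl1 and -0.63 to 0.33 for Pou4f1. At 14 days they ran from -0.40 to 0.034 for Rbfox3, -0.58 to 0.18 for Snap25, -0.034 to 0.50 for Elavl4, -0.56 to 0.014 for Isl1 and -0.19 to 0.59 for Pou4f1. In neurons of both sexes they ran from -0.32 to 0.022 for Elavl3, -0.23 to 0.031 for Rbfox3, -0.16 to 0.019 for Elavl4, -0.073 to 0.018 for Uchl1, -0.012 to 0.69 for Thy1, -0.18 to 0.18 for Map7d2 and -0.15 to 0.33 for Isl1. On the ligated side they ran from -0.50 to 0.11 for Elavl3, -0.049 to 0.34 for Rbfox3, -0.089 to 0.30 for Snap25 and -0.027 to 0.54 for Elavl4. The cause was not tested.

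With the replicate number as a block, 9 members were called in naive mice and 0 in SGCs after surgery, while all genes counted 5187, 0 and 1 for naive, 3 days and 14 days. After surgery same-numbered SGC libraries had correlations near 0 (r from -0.0596 to 0.0068 at 3 days and -0.0226 to 0.0595 at 14 days). In naive mice r ran from 0.00273 to 0.186. Naive libraries 3 and 4 correlated best with their own number, and libraries 1 and 2 did not. The number was therefore not taken as a pairing, though a pairing of naive libraries 3 and 4 was not excluded. No paired analysis was possible for neurons because their columns carry no replicate number.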
